A study of Mus musculus with 19 samples.

Results

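Described here are 9 genes of the regulator of G protein signalling (RGS) family, Rgs13, Rgs1, Rgs2, Rgs3, Rgs10, Rgs14, Rgs16, Rgs18 and Rgs19, out of 22101 genes listed in any of 4 expression tables of mouse B lineage cells. They were found by gene symbol, and the list was drawn up with the difference in Rgs13 between germinal centre groups already known. For that reason their values in the germinal centre comparison are a description without a test, while naive B cells, which did not enter the choice, are tested. The study sequenced RNA from sorted cells of mice immunized with sheep red blood cells and taken at day 28, and it compares mice whose label is Pik3cg knockout (KO) with mice labelled wild type (WT); Pik3cg encodes p110γ, a catalytic subunit of phosphoinositide 3-kinase. Splenic germinal centre B cells, gated as CD95+ and GL7+, gave 4 KO and 3 WT libraries. Splenic naive B cells, gated as CD3-, B220+ and IgD+, gave 3 and 3, and CD138+ antibody-secreting cells of the WT label gave 3 libraries from spleen and 3 from bone marrow. All 6 groups received the same immunization. The sources used here do not give strain, age or the deleted part of Pik3cg.

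RGS proteins bind the active, GTP-loaded α subunit of a heterotrimeric G protein and speed its GTP hydrolysis, which ends the signal of a G protein-coupled receptor. In B cells the receptors concerned include those for chemokines and for sphingosine 1-phosphate, which place the cells in follicles, in the dark and light zones of the germinal centre, or at the follicle edge. The family is divided by structure: Rgs1, Rgs2, Rgs3, Rgs13, Rgs16 and Rgs18 belong to the R4 subfamily, Rgs10 and Rgs14 to the R12 subfamily, and Rgs19 to the RZ subfamily. Rgs13 and Rgs1 are known from germinal centre B cells, where they dampen chemokine responses.

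Values are counts per 1000000 assigned reads (CPM), and depth spans 10.2 to 21.6 M reads per library (1 M is 1000000). The 4 tables were deposited separately, so levels set across tables are described and not tested. For 9 WT samples, all naive or antibody-secreting, the column heading says HET instead. Pik3cg did not settle the labels: it spanned 6.55 to 66.0 CPM in KO-labelled and 19.4 to 56.5 CPM in WT-labelled germinal centre libraries (limma adjusted p = 0.696), and, among naive B cells, 94.98 to 126.8 against 110.1 to 114.5 CPM (limma adjusted p = 0.935), so every direction below is between labels, not verified genotypes. In the WT-labelled germinal centre libraries the markers Gcsam and S1pr2 were at 0 in all 3, Bcl6 averaged 1.03 CPM, against 34.0 CPM in the KO-labelled ones, while Fas, which encodes the gated CD95, averaged 213 and 250 CPM. Summed over 10 germinal centre markers, the WT-labelled libraries reached at most 309 CPM and the KO-labelled ones 1765 to 2072 CPM, while naive B cells held 39.7 to 84.7 CPM. Fas, the gated gene, made up most of the WT-labelled germinal centre sum, with 197 to 226 CPM. It averaged 10.5 CPM in KO-labelled and 12.9 CPM in WT-labelled naive libraries. WT-labelled replicate 3 was the only germinal centre library with reads from the Y-linked gene Ddx3y (159 CPM), and KO-labelled replicate 1 held the most erythroid and macrophage marker RNA. The germinal centre fold changes of the members, and the calls in that comparison, are therefore also given without these 2 libraries.

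The members Rgs2, Rgs13, Rgs1 and Rgs18 are neighbours on chromosome 1 in mm10, all on the minus strand (GENCODE release M21): Rgs2 (ENSMUSG00000026360, chr1:143999338-144004161), Rgs13 (ENSMUSG00000051079, chr1:144138654-144177372), Rgs1 (ENSMUSG00000026358, chr1:144242296-144249242) and Rgs18 (ENSMUSG00000026357, chr1:144752683-144775435). From the start of Rgs13, the start of Rgs2 lies 173.2 kb towards lower coordinates, and those of Rgs1 and Rgs18 lie 71.9 kb and 598.1 kb towards higher ones. The whole group spans 776.1 kb. Rgs16 (ENSMUSG00000026475) is farther along the same chromosome at chr1:153740349-153745468. The remaining members are dispersed: Rgs3 (ENSMUSG00000059810) at chr4:62559847-62704001, Rgs10 (ENSMUSG00000030844) at chr7:128373621-128418758, Rgs14 (ENSMUSG00000052087) at chr13:55369732-55384687 and Rgs19 (ENSMUSG00000002458) at chr2:181688419-181693977. Rgs3, Rgs10 and Rgs16 each overlap a gene annotated on the opposite strand. How strand was treated in counting is not stated in those sources, and the split of reads with these partners is uncertain.

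Rgs13 and Rgs2 are the 2 members whose germinal centre groups did not overlap, and the 250 bases before each start site are printed to show how unlike they are. Both come from RefSeq (GRCm38.p6) and read 5′ to 3′ on the minus strand, chr1:144177373-144177622 for Rgs13 and chr1:144004150-144004399 for Rgs2. Capitals mark CG dinucleotides.
Rgs13: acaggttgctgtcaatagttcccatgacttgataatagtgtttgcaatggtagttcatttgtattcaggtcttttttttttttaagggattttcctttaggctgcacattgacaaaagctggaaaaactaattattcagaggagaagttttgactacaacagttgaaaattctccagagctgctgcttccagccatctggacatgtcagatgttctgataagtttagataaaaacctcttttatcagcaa
Rgs2: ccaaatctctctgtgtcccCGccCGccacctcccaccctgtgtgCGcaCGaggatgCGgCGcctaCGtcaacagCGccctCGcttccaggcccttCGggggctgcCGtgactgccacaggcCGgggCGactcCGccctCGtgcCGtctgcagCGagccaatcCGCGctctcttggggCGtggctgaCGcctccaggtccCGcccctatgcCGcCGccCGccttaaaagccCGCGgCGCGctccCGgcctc
The Rgs13 sequence holds 36.0% G or C and 0 CG dinucleotides, and the Rgs2 sequence 72.4% and 30. Over all 32851 sequences of this kind and length in the table, the median is 52.4% G or C with 6 CG dinucleotides. Of these, 6.24% have as little G or C as Rgs13 or less, 6.45% have as much as Rgs2 or more, and 7.87% have no CG dinucleotide. The table held 9 such sequences for 6 members (Rgs2, Rgs3, Rgs10, Rgs13, Rgs16 and Rgs19). On both strands they were searched for the octamer ATGCAAAT (in 1.60% of all sequences), the forkhead motif TGTTTAC (3.17%), the cAMP response element TGACGTCA (1.55%), the E-boxes CAGCTG (13.0%) and CAGGTG (17.2%), and TTCNNNGAA (7.02%), the motif bound by STAT proteins. None of these letters was found in the 9 windows.

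The germinal centre comparison asks how cells with germinal centre surface markers differ with the Pik3cg label. Rgs13 was the most abundant member per kilobase in the KO-labelled libraries and was listed at 0 in the WT-labelled ones. Rgs2 was also higher in the KO-labelled libraries, while Rgs1 had the higher mean in the WT-labelled ones. Of the other members, Rgs18 and Rgs14 varied widely between libraries, and Rgs10 and Rgs19 overlapped between the groups.

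Rgs13, which restrains chemokine-driven migration of germinal centre B cells, stood at 1139, 725, 1160 and 1294 CPM in KO-labelled replicates 1 to 4 and at 0 CPM in all 3 WT-labelled libraries. The groups were fully separate, and no library fell between them. Its KO-labelled mean of 1079 CPM (coefficient of variation 22.8%, n = 4) is at least 7061-fold higher than a floor of 3 reads per library, which corresponds to 0.139 to 0.153 CPM in the 3 libraries at 0. On the log2(CPM + 1) scale used for all fitted fold changes, which understates the change of low genes, the difference was 10.04 (SE 0.30). In bulk RNA, fewer cells of a type and less RNA per cell cannot be told apart. Only 8 genes were at 0 in all 3 WT-labelled libraries and at 50 CPM or more in each KO-labelled library. Rgs13 led them, followed by Gcsam with a KO-labelled mean of 417 CPM, the T cell receptor components Cd3g, Trbc2 and Cd3d, the myeloid genes Lyz2 and Fcna, and the transcription factor gene Tox. A value of 0 was rare among genes listed in both tables and as abundant as Rgs13 in naive B cells. Of 3530 such genes with a WT-labelled naive mean of 10 to 30 CPM, 35 (0.992%) were at 0 in all 3 WT-labelled germinal centre libraries. In all 4 KO-labelled ones, 34 (0.963%) were at 0. Genes missing from the germinal centre table were not counted, and the shares are a description, since Rgs13 was chosen for this difference.

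Rgs2, an R4 member known for acting on Gq, stood at 166, 117, 94.5 and 113.5 CPM in the 4 KO-labelled libraries and at 30.7, 21.5 and 25.6 CPM in the 3 WT-labelled ones. The lowest KO-labelled library was therefore far above the highest WT-labelled one. The ratio of the means was 4.73, with a log2 fold change of 2.18 (SE 0.29). Unlike Rgs13, Rgs2 was detected in every WT-labelled library, with 430 to 663 reads.

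Rgs1, which limits the chemokine responses of lymphocytes, showed the opposite order of means. KO-labelled libraries held 107.8, 93.0, 67.7 and 135.7 CPM and WT-labelled libraries 208, 255 and 105 CPM. The groups overlapped through WT-labelled replicate 3, which lay below 2 of the KO-labelled libraries. The WT-labelled mean was 1.87 times the KO-labelled mean, a log2 fold change of −0.85 (SE 0.34). It was −1.23 without that replicate and −1.27 without both it and KO-labelled replicate 1.

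Rgs18, an R4 member best known from platelets and megakaryocytes, was at 62.0, 20.9, 96.3 and 17.5 CPM in KO-labelled libraries and at 21.6, 5.59 and 0 CPM in the WT-labelled ones. WT-labelled replicate 1 lay above KO-labelled replicates 2 and 4, so the groups overlapped. The log2 fold change was 2.91 (SE 1.08). It ranged from 1.70 to 3.95 when each library was left out in turn, and was 1.48 without KO-labelled replicate 1 and WT-labelled replicate 3. Only 2 of 8 megakaryocyte and platelet markers were listed in the germinal centre table, with sums of 0.333 to 28.6 CPM in KO-labelled libraries and 9.48 to 16.8 CPM in the WT-labelled ones. Pf4 was at 0 in all 3 of the latter and in KO-labelled replicates 1 to 3, and at 3.36 CPM in KO-labelled replicate 4.

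Rgs14, an R12 member that also binds Ras proteins and carries a GoLoco motif for inactive Gαi, was at 13.5, 52.1, 8.13 and 16.4 CPM against 0.648, 0 and 11.6 CPM. WT-labelled replicate 3 lay above KO-labelled replicate 3, and 1 KO-labelled library stood far above the other 3. Its log2 fold change was 2.77 (SE 1.07). It ranged from 2.04 to 3.86 when each library was left out in turn, with 2.27 without the high KO-labelled replicate 2, where its mean fell below 10 CPM and genes averaging 1 CPM or more were fitted. Without KO-labelled replicate 1 and WT-labelled replicate 3 it was 3.99. Rgs10, the other R12 member, was nearly level, at 52.8 to 94.0 CPM in KO-labelled libraries and 59.1 to 78.3 CPM in the WT-labelled ones, a log2 fold change of 0.16 (SE 0.27), and of −0.04 without those 2 libraries. Rgs19, the RZ member also known as GAIP, spanned 88.8 to 191.7 CPM against 57.5 to 123.6 CPM, with overlap and a log2 fold change of 0.72 (SE 0.35), which was 0.28 without the same 2 libraries. Rgs3, an R4 member with several isoforms, was low and uneven: it stood at 0.115, 20.3, 0.0607 and 10.5 CPM in KO-labelled libraries and at 0, 0 and 1.58 CPM in the WT-labelled ones. Its values in KO-labelled replicates 1 and 3 come from 2 reads and 1 read, under the floor of 3 reads. The Rgs3 mean was under the 10 CPM that a gene needed to enter the fit. Rgs16 is not listed in the germinal centre table.

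**Figure D1:**
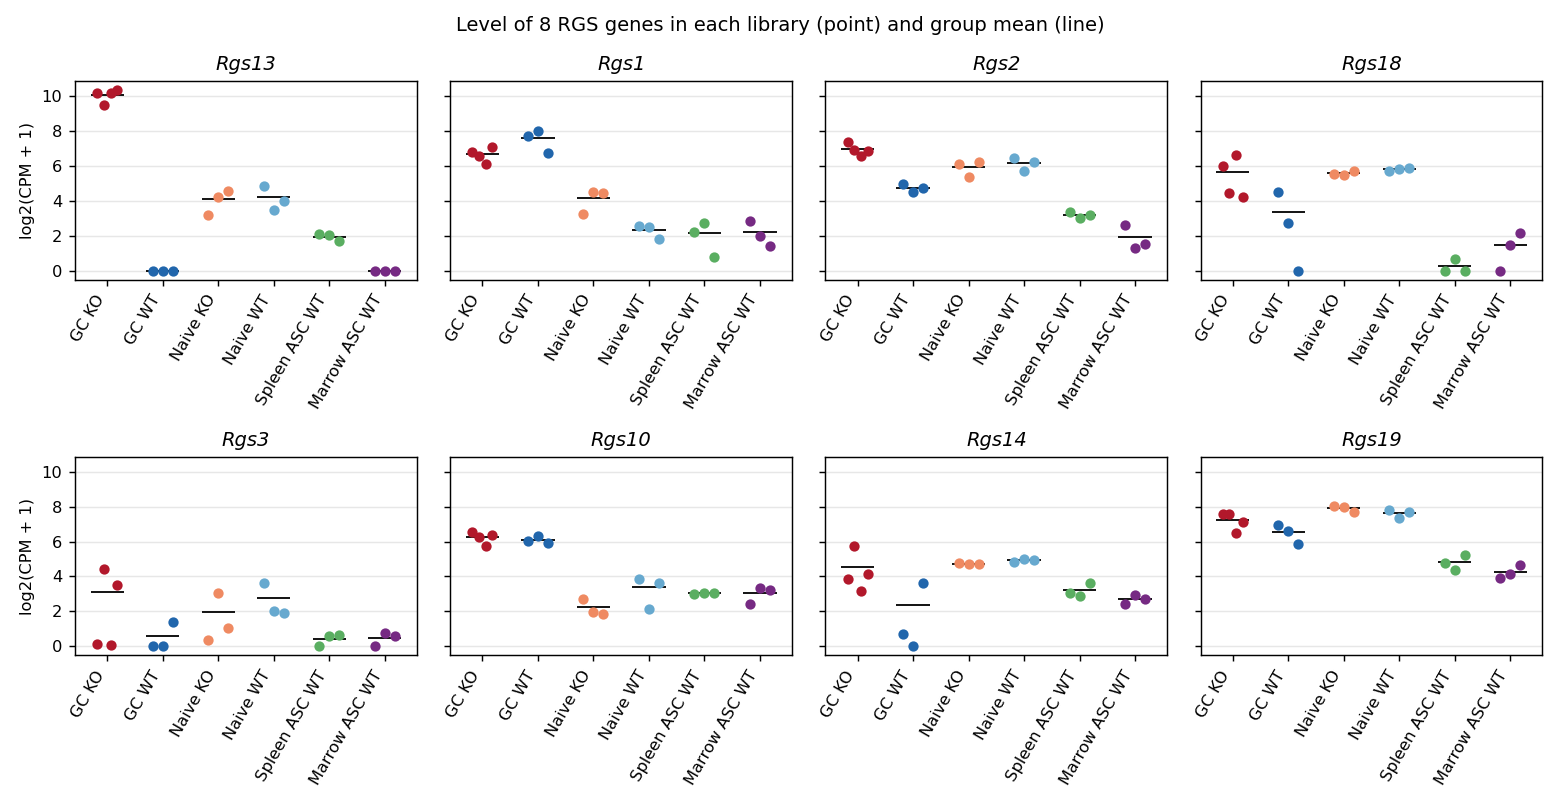
Level of 8 RGS genes in 19 libraries (Rgs16, at 0 wherever listed, is left out). The vertical axis is log2(CPM + 1), points are libraries, lines mark the group mean, GC is germinal centre, ASC antibody-secreting cell, and KO and WT are the labelled genotypes; Rgs13 is at 725 to 1294 CPM in GC KO and at 0 in GC WT and in bone marrow ASC.

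In the fit over all 8522 germinal centre genes that averaged 10 CPM or more, 13.6% of genes were called (adjusted p under 0.05), 8.54% higher and 5.09% lower with the KO label. Of the 9 members, 7 entered the fit and 2, Rgs13 and Rgs2, were called, both higher. Groups without overlap were found for 27.4% of all genes (15.6% higher, 11.7% lower) and for the same 2 members. The members were chosen on this comparison, and Rgs13, Rgs18 and Rgs14 reached the 10 CPM mean only through the KO-labelled libraries. Nothing is therefore read from these counts. The median log2 fold change of the 7 members was 2.18, that of all genes 0.03. The count over all genes fell from 1162 to 732, 603 and 712 without WT-labelled replicate 1, 2 or 3, and to 432 without KO-labelled replicate 1 and WT-labelled replicate 3. In the last of these fits the log2 fold change was 10.01 for Rgs13 and 2.03 for Rgs2.

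Markers of other cells moved with the same comparison. Summed over 19 T cell markers, KO-labelled libraries held 1327 to 2729 CPM and the WT-labelled ones 76.8 to 142 CPM, with 10 markers, Cd3d, Cd3e and Cd3g among them, at 0 in all 3 of the latter. Naive B cells held 93.9 to 149 CPM. Summed over 16 monocyte and macrophage markers, the ranges were 208 to 2442 CPM and 90.3 to 247 CPM, and 12 markers, including Lyz2 and C1qa, were at 0 in all 3 WT-labelled libraries. Antibody-secreting cell markers went the other way: of 8 markers, 6 were lower with the KO label without overlap, among them Xbp1 (478 against 3023 CPM), Mzb1 (625 against 2313 CPM), Irf4 (26.7 against 144 CPM) and Prdm1 (7.09 against 82.2 CPM). The other 2, Jchain (7923 against 3719 CPM) and Tnfrsf17 (15.6 against 2.65 CPM), overlapped, and so did the sum of the list, at 4099 to 12082 CPM and 7292 to 11555 CPM. Set across tables, spleen antibody-secreting cells averaged 4389 CPM for Xbp1, 1811 for Mzb1, 158 for Irf4 and 85.0 for Prdm1. Slamf7 was at 220 CPM there, against 541 CPM in WT-labelled germinal centre libraries. Sdc1 was at 338 against 54.0 CPM, and Jchain and Tnfrsf17 were at 107061 and 122 CPM in those spleen cells. The part of T cells, macrophages and antibody-secreting cells in the values of the RGS genes was not tested. In KO-labelled replicates 1 to 4 the T cell sums were 1455, 2729, 1416 and 1327 CPM. The monocyte and macrophage sums were 2442, 812, 208 and 816 CPM, and Rgs13 stood at 1139, 725, 1160 and 1294 CPM. Summed over 6 naive B cell markers, KO-labelled germinal centre libraries held less, at 373 to 714 CPM, than the WT-labelled ones, at 1720 to 2720 CPM. Naive B cells held 7319 to 8439 CPM. Of these 6 markers, 2 (Ccr7 and Fcer2a) were lower and 3 higher with the KO label without overlap.

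The naive comparison asks whether the RGS genes differ with the Pik3cg label in IgD+ B cells outside the germinal centre gate. No member passed the test. Rgs1 showed the largest difference, with a higher mean in the KO-labelled libraries, the reverse of its order in germinal centre B cells. Rgs13, Rgs2, Rgs18 and Rgs14 each had a slightly lower mean in the KO-labelled libraries.

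Rgs1 was at 8.31, 21.6 and 20.5 CPM in the KO-labelled naive libraries and at 4.90, 4.63 and 2.46 CPM in the WT-labelled ones. The groups did not overlap, and the means differed 4.20-fold. The log2 fold change was 1.76 (95% interval 0.48 to 3.05), with an unadjusted p of 0.0137 and an adjusted p of 0.739 by limma over 8832 genes, so the difference did not pass. Rgs1 reached the 10 CPM mean needed for the fit only through the KO-labelled libraries (16.8 against 4.00 CPM), so neither this p nor the lack of overlap is read as support for a difference. With genes averaging 1 CPM or more, the limma adjusted p was 0.692. Leaving out each library in turn gave 1.52 to 2.18; without KO-labelled replicate 2 or 3 Rgs1 fell below 10 CPM, and genes averaging 1 CPM or more were fitted. Whether the Rgs1 difference itself varies between germinal centre and naive B cells was not tested.

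Rgs13 in naive B cells was at 7.92, 17.3 and 22.6 CPM with the KO label and at 28.0, 10.2 and 14.9 CPM with the WT label. These ranges overlapped almost entirely, and the log2 fold change of −0.14 (95% interval −1.31 to 1.02; adjusted p = 0.966, limma) changed sign when 1 library was left out, to 0.26 without KO-labelled replicate 1 and 0.23 without WT-labelled replicate 1. Rgs2 was at 66.6, 40.8 and 72.9 CPM against 87.7, 51.6 and 72.7 CPM, again overlapping. Its log2 fold change was −0.24 (95% interval −0.90 to 0.42; adjusted p = 0.885, limma), and 0.013 without KO-labelled replicate 2. For both genes these intervals leave out differences of the size seen in germinal centre B cells.

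Rgs18 and Rgs14 were measured with little spread in naive B cells. Rgs18 stood at 45.05, 44.0 and 50.2 CPM with the KO label and at 51.4, 55.1 and 57.1 CPM with the WT label, without overlap but with a log2 fold change of only −0.23 (95% interval −0.61 to 0.15; adjusted p = 0.808, limma). Rgs14 stood at 26.0, 25.0 and 25.5 CPM against 27.9, 30.9 and 30.1 CPM, also without overlap, with a log2 fold change of −0.21 (95% interval −0.68 to 0.27; adjusted p = 0.850, limma). Neither passed the test. The coefficient of variation of Rgs14 was 1.92% among KO-labelled naive libraries and 88.8% among KO-labelled germinal centre libraries, and that of Rgs18 was 7.20% and 76.0%. Over all genes with a mean of 10 to 100 CPM the median coefficients were 24.7% and 50.3%.

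Rgs19 was at 260, 248 and 209 CPM with the KO label and 221, 162 and 205 CPM with the WT label in naive B cells, a log2 fold change of 0.29 (95% interval −0.07 to 0.64; adjusted p = 0.772, limma). The 2 groups overlapped. Rgs10 (2.66 to 5.57 against 3.34 to 13.7 CPM) and Rgs3 (0.293 to 7.19 against 2.81 to 11.6 CPM) were below the 10 CPM mean. When all genes averaging 1 CPM or more were fitted, their limma adjusted p-values were 0.799 and 0.871. Rgs16, an R4 member induced by activation in lymphocytes, was at 0 in all 6 naive libraries.

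Of 8832 naive genes tested, 0.0% were called by limma, while 587 had an unadjusted p under 0.05 (6.65%). Among the 6 members tested 0 were called and 1, Rgs1, had an unadjusted p under 0.05. Groups without overlap were found for 13.6% of all genes, 5.99% higher and 7.61% lower with the KO label, and for 3 of the 6 members, Rgs1 higher and Rgs18 and Rgs14 lower. Since Rgs1 entered only through its higher group, nothing is read from these counts. The smallest adjusted p over all genes was 0.728. The median log2 fold change was −0.18 for the 6 members and −0.01 for all genes.

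**Figure D2:**
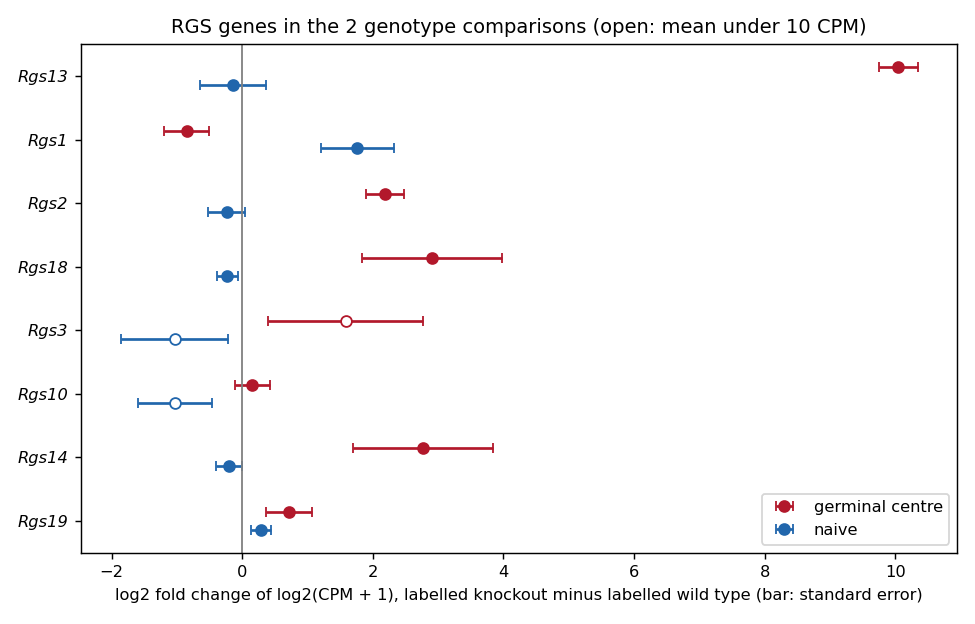
Fitted difference between KO-labelled and WT-labelled libraries for 8 RGS genes. The horizontal axis is the log2 fold change on the log2(CPM + 1) scale with its standard error, red for germinal centre and blue for naive B cells, and open circles mark genes with a mean under 10 CPM; Rgs13 lies at 10.04 in germinal centre B cells and at −0.14 in naive B cells.

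Seen over all 6 groups, Rgs13 fell into 4 separate ranges. After the KO-labelled germinal centre libraries came naive B cells, at 17.7 CPM ± 9.23 (SD, n = 3) with the WT and 15.9 CPM ± 7.42 (SD, n = 3) with the KO label, which overlapped. Antibody-secreting cells of the spleen held 3.24, 3.13 and 2.19 CPM, below every naive library, and those of the bone marrow held 0 CPM in all 3 libraries (floor 0.170 to 0.243 CPM), as did WT-labelled germinal centre libraries. The KO-labelled germinal centre mean was 60.9 times the WT-labelled naive mean, a ratio that is set across tables. Germinal centre WT-labelled libraries were thus the lowest B cell group for Rgs13, below the naive cells of the same study.

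Rgs2 followed a related order at a smaller scale. It was highest in KO-labelled germinal centre libraries (122.7 CPM ± 30.5, SD, n = 4), then in naive B cells (70.7 CPM ± 18.1 and 60.1 CPM ± 17.0, SD, n = 3 each, overlapping), then in WT-labelled germinal centre libraries (25.9 CPM ± 4.61, SD, n = 3). Antibody-secreting cells were lower still: 9.39, 7.09 and 8.11 CPM in spleen and 5.16, 1.46 and 1.87 CPM in bone marrow. Apart from the 2 naive groups, no neighbours in this order overlapped.

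Rgs18 and Rgs14 were highest on average in WT-labelled naive libraries, at 54.5 CPM ± 2.90 and 29.6 CPM ± 1.58 (SD, n = 3 each). Rgs18 was almost absent from antibody-secreting cells, with 0, 0.610 and 0 CPM in spleen and 0, 1.78 and 3.41 CPM in bone marrow. Rgs14 stayed detectable there, at 6.25, 7.25 and 11.16 CPM in spleen and 4.36 to 6.57 CPM in bone marrow, levels within the range of the WT-labelled germinal centre libraries. Rgs19 was likewise highest in naive B cells and lower in antibody-secreting cells, at 20.1 to 36.9 CPM in spleen and 13.8 to 24.2 CPM in bone marrow, and these were the only 2 groups below the lowest germinal centre library (57.5 CPM).

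Rgs1 and Rgs10 had a different order, with both germinal centre groups on top. The WT-labelled germinal centre mean was 47.4 times the WT-labelled naive mean for Rgs1 and 7.13 times for Rgs10, where the same ratio was 0.37 for Rgs2 and 0.47 for Rgs19. Both genes were low in antibody-secreting cells: Rgs1 spanned 0.731 to 5.72 CPM in spleen and 1.65 to 6.11 CPM in bone marrow, and Rgs10 7.04 to 7.25 CPM and 4.44 to 9.16 CPM. For Rgs1 these ranges overlapped WT-labelled naive B cells, while every KO-labelled naive library lay above every antibody-secreting cell library. Rgs10 was lower in KO-labelled naive libraries than in spleen antibody-secreting cells. Rgs3 did not exceed 0.730 CPM in any antibody-secreting cell library, and Rgs16 was at 0 in all 6 of them. For a gene at 0 in the naive and antibody-secreting cell libraries, the floor of 3 reads is 0.170 to 0.293 CPM.

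Between genes, levels are compared per kilobase of annotated exon, counting each base that is exon in any transcript. For Rgs1 this length, 6947 bases, is its whole span on the chromosome. Its level per kb may therefore be understated, and its place in these orders is not read. In KO-labelled germinal centre libraries Rgs13 stood at 652 CPM per kb ± 149 (SD, n = 4), followed by Rgs19 at 68.1, Rgs10 at 44.5, Rgs2 at 33.8, Rgs18 at 24.2, Rgs1 at 14.5, Rgs14 at 5.32 and Rgs3 at 0.716 CPM per kb. With the WT label the order of germinal centre levels was led by Rgs19 at 41.4, Rgs10 at 39.3 and Rgs1 at 27.3 CPM per kb. By CPM without the length, Rgs1 had the highest mean there, at 189 against 92.4 for Rgs19 and 67.3 for Rgs10. In WT-labelled naive libraries, Rgs19 led at 88.0 CPM per kb, ahead of Rgs18 at 26.8, Rgs2 at 19.5 and Rgs13 at 10.7 CPM per kb. Thus Rgs13 moved from the fourth place among members in naive cells to the first in one germinal centre group and to no reads in the other.

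**Figure D3:**
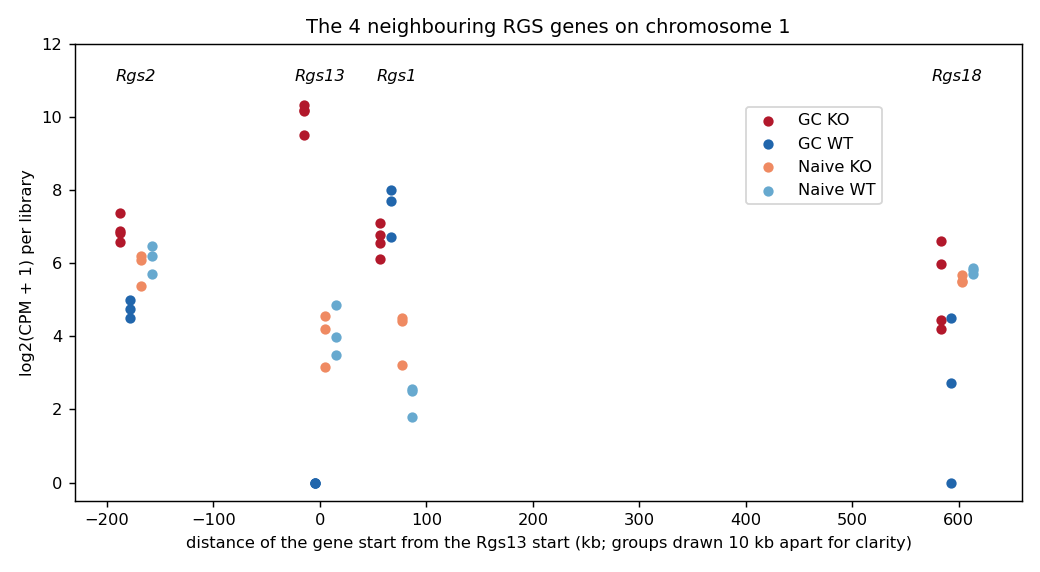
The 4 neighbouring RGS genes of chromosome 1 in germinal centre (GC) and naive B cells. The horizontal axis is the distance of each gene's start from the Rgs13 start in kb, with groups offset for clarity, the vertical axis is log2(CPM + 1), and each point is a library; the 3 GC WT points of Rgs13 coincide at 0, while Rgs1 is at 105 to 255 CPM in the same libraries.

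The neighbours on chromosome 1 did not share a direction. In germinal centre B cells Rgs13, Rgs2 and Rgs18 had the higher mean with the KO label and Rgs1, whose start lies 71.9 kb from that of Rgs13, had the lower one. Within 1 Mb of this group, 3 other genes entered the germinal centre fit and none was called: Cdc73 at 18.7 against 29.0 CPM (limma adjusted p = 0.478), Glrx2 at 39.9 against 35.7 CPM (limma adjusted p = 0.824) and Uchl5 at 167.9 against 123.8 CPM (limma adjusted p = 0.180). None of the 3 was called in naive B cells. Cdc73 was there at 54.7 against 18.4 CPM (limma adjusted p = 0.728, equal to the smallest over all naive genes). Glrx2 and Uchl5 had limma adjusted p-values of 0.887 and 0.938.

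To see which genes shared the pattern of Rgs13, log2(mean CPM + 1) over the 6 groups was correlated with that of Rgs13. The 6 points share tables and libraries, so the Pearson r is a description. Among the members it was highest for Rgs3 (r = 0.89), which is low in all groups, followed by Rgs2 (0.79), Rgs14 (0.76), Rgs18 (0.66), Rgs19 (0.59), Rgs10 (0.34) and Rgs1 (0.29). Rgs2 was thus the most similar member with a mean above 10 CPM in germinal centre B cells and the only other one whose germinal centre groups did not overlap. Next, 3387 genes averaging 50 CPM or more in KO-labelled germinal centre libraries were compared, among them the members Rgs1, Rgs2, Rgs10 and Rgs19. The 8 most like Rgs13 were Cst3 (r = 0.99), which encodes cystatin C, the phosphatidylinositol transfer protein gene Pitpnc1, the complement gene C1qb, the DNA-protein crosslink gene Hmces, the T cell receptor ζ chain gene Cd247, the chemokine gene Ccl5, the TNF receptor family gene Cd27 and the DNA glycosylase gene Neil1 (r = 0.98). Their levels differ: Hmces averaged 402 CPM in KO-labelled germinal centre libraries, 15.9 CPM in the WT-labelled ones and 60.2 CPM in WT-labelled naive libraries, whereas Cst3 varied only from 192 to 338 CPM over the 6 groups. Cd247 and C1qb belong to the T cell and macrophage marker lists whose sums moved with the comparison.

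**Figure D4:**
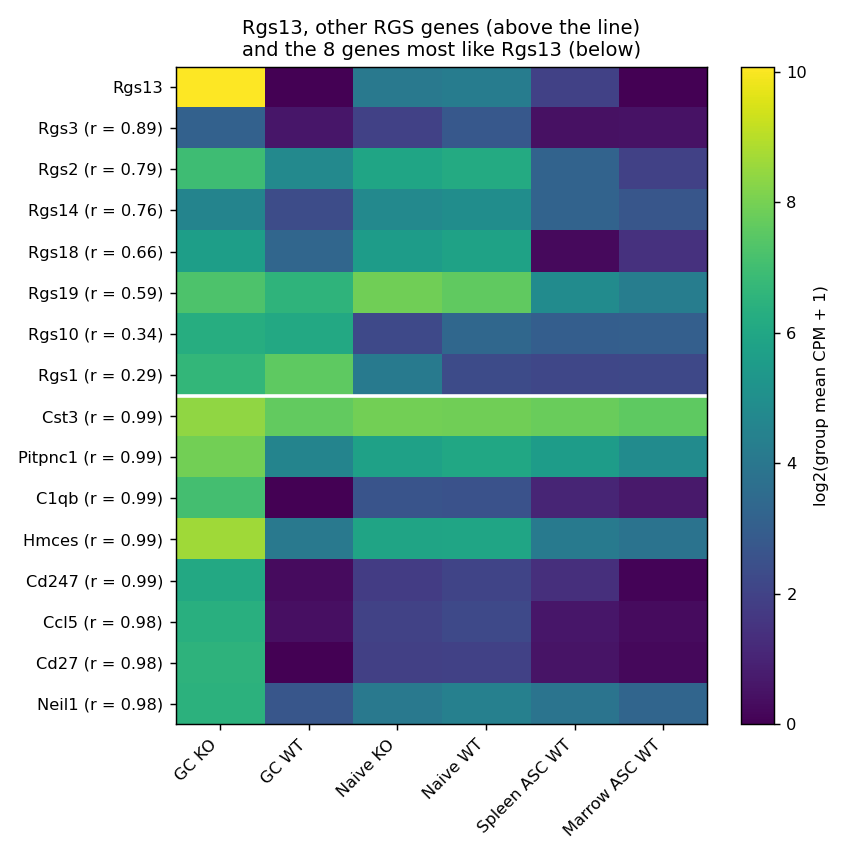
Group means of Rgs13, the 7 other RGS genes listed in all tables and the 8 genes most like Rgs13. Rows are genes with their Pearson r to Rgs13 over 6 group means, columns are groups, and colour gives log2(group mean CPM + 1); r falls from 0.89 for Rgs3 to 0.29 for Rgs1 among the RGS genes and is at least 0.98 for the 8 genes below the line.

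Other parts of G protein signalling were followed in 6 lists of 98 genes, left without the 9 members. In germinal centre B cells 50 of them were tested, of which 11 were higher and 4 lower with the KO label (30% called, against 13.6% of all genes). Their median log2 fold change was 0.10, against 0.03 for all genes. The lists were drawn up with earlier results of these data known. S1pr2, Ccr6, Cxcr3, Gnaz, Gpsm2, Gpr132 and Gna15 also reached the 10 CPM mean only through their higher group. Nothing is therefore read from the share called or from the p-values of these genes. Fewer list genes were called without WT-labelled replicate 1, 2 or 3 (7, 6 and 9), and 5 without both KO-labelled replicate 1 and WT-labelled replicate 3. Those 5 were the receptor genes S1pr2, Ccr6, Gpr132, Gpr183 and Cxcr3, and the other 10 kept their direction there with limma adjusted p-values of 0.0556 to 0.173. The cell type sums given above moved with this comparison too.

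Among the G protein-coupled receptors of B cells, 5 of 15 tested were higher and 2 lower. S1pr2, which confines B cells to the germinal centre, averaged 51.9 CPM ± 14.0 (SD, n = 4) with the KO label and had 0 CPM in each of the 3 WT-labelled libraries (limma adjusted p = 0.000994). The chemokine receptor gene Ccr6 averaged 59.3 CPM and was likewise at 0 in those 3 libraries (limma adjusted p = 0.00358). Gpr132 was at 4.09 against 85.0 CPM, in the opposite direction (limma adjusted p = 0.00891). Of 9 tested α subunits, 3 were higher and 1 lower. Gna13, which couples to S1pr2, was at 179 against 81.7 CPM (limma adjusted p = 0.0240). Gnaz was at 22.1 against 0.527 CPM (limma adjusted p = 0.0132), and Gna15 at 2.95 against 52.0 CPM (limma adjusted p = 0.0216).

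Of 8 tested β and γ subunits only Gnb4 was called, lower at 20.8 against 228 CPM (limma adjusted p = 0.0317). Of 11 tested regulators outside the RGS family, 3 were higher: the receptor kinase gene Grk6 (76.8 against 16.2 CPM, limma adjusted p = 0.0137), and the GoLoco-motif genes Gpsm2 (32.4 against 4.08 CPM, limma adjusted p = 0.0495) and Gpsm3 (79.3 against 35.1 CPM, limma adjusted p = 0.0376). None of 7 tested effectors was called; Rac2 was at 771 against 669 CPM and Dock2 at 120.0 against 116.4 CPM. The list of 12 further RGS genes had 5 listed and none tested. Rgs4 reached 29.9 CPM in KO-labelled replicate 4 and was at 0 in the other 6 germinal centre libraries, and Rgs12 reached 14.5 CPM.

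In naive B cells 50 genes of these lists were tested and 0 were called by limma, with 2 at an unadjusted p under 0.05 (4%, against 6.65% of all genes). These were S1pr1, a receptor for sphingosine 1-phosphate, at 498 against 376 CPM (limma adjusted p = 0.739), and Gnai3, an α subunit of the inhibitory class, at 271 against 221 CPM (limma adjusted p = 0.740), both without overlap. The follicular homing receptor gene Cxcr5 was at 746 against 751 CPM and Ccr7 at 786 against 809 CPM, with overlapping libraries in both cases.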

How the data were processed

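RNA-seq libraries of sorted mouse B lineage cells were grouped by the sample labels. Reads were aligned with STAR to mm10, per the submitters' processing notes; the sources used here do not give the counting tool, annotation or strand setting. The authors deposited CPM values in 4 tables, and the columns sum to 1000000. In the germinal centre table a constant of 0.0001 had been added throughout and was taken off here. It lists 17939 genes; the other 3 list 19416 rows, of which 19 with gene names turned into dates were left out. Depth, 10.2 to 21.6 M reads (1 M is 1000000), was read from the smallest step between CPM values, which is 1 read. Below 1000 reads, 61.4% to 67.8% (germinal centre) and 85.2% to 88.8% (others) of values were within 0.02 of a whole read, so no count test was used. The floor of 3 reads covers counting error only.

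Genes averaging 10 CPM or more were fitted in R 4.3.3 by the limma-trend method of limma 3.58.1 on log2(CPM + 1) within each table, with Benjamini-Hochberg adjustment over all genes tested and calls at an adjusted p under 0.05. The fits were also run on simulated data with independent normal noise for each gene. These data held no carried-over cells or odd libraries, so nothing is read from that run. All 9 members are named; of each pathway list, up to 3 called genes with the largest change, no overlap and at least 20 CPM in a library are named, and otherwise up to 2 with the highest mean. Rgs4, Rgs12, S1pr1, Gpr183, Cxcr3, the 8 genes at 0 in 1 group and the neighbours on chromosome 1 were named after their values were seen. The members and lists were chosen with earlier results of these data known. The labels do not tie libraries to single mice, so p-values measure the spread between libraries, which may be partly technical. Sums, per-kilobase levels (GENCODE release M21 exon lengths) and correlations used Python 3.11.15 and pandas 2.3.3, and figures matplotlib 3.10.9. Alternatives covered the pseudocount, filter, scaling, sample weights, a replicate block and left-out libraries. One gene of the germinal centre marker list is not reported here by itself.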

Additional observations from a re-analysis of the deposited data

Results flagged for a closer look

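In groups of 4 libraries, a highest or lowest value was noted where its gap to the nearest other library took up more of the range than Dixon's 95% critical value. Of 32 sets of 4 KO-labelled germinal centre libraries that were looked at, 5 passed, where chance gives about 1 in 20. None was an RGS gene, and all 5 were sums of cell type markers. The T cell sum was 2729 CPM in replicate 2, against 1327, 1416 and 1455 CPM in the others. The erythroid sum was 2977 CPM in replicate 1, against 29.7, 142 and 324 CPM. The sum over natural killer and innate lymphoid markers was 0 CPM in replicate 3, against 12.7, 12.8 and 13.6 CPM. The B cell sum was 6559 CPM in replicate 4, against 7295, 7312 and 7400 CPM. The germinal centre sum was 1765 CPM in replicate 2, the library with the lowest Rgs13 value, against 2036, 2041 and 2072 CPM.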

How the results depend on the processing

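Direction and side of the threshold were the same as in the values given in 109 of 112 refits of a member's fold change in germinal centre B cells and 75 of 78 in naive B cells. The members were chosen on the germinal centre comparison, so its member calls are a description and not a test. The germinal centre exceptions were Rgs1, counted as lower only without WT-labelled replicate 3 (−1.23), Rgs10, and Rgs18 under a block described below. Rgs13 moved to 13.37 or 7.73 with a pseudocount of 0.1 or 5 CPM. Naive exceptions were Rgs13 at 0.23 without WT-labelled replicate 1 and 0.26 without KO-labelled replicate 1 (range over left-out libraries −0.46 to 0.26), and Rgs2 at 0.013 without KO-labelled replicate 2 (range −0.45 to 0.013), none of them called. Leaving out each library gave 603 to 1134 germinal centre genes called, 2 to 3 members and 6 to 14 genes of the G protein lists, and 0 in each naive count. With KO replicate 1 and WT replicate 3 both left out, which was decided after seeing the data, 432 genes (291 higher, 141 lower), 2 members and 5 list genes were called, and the log2 fold change of Rgs10 was −0.04. Fewer libraries entered these fits. With a replicate block, 831 germinal centre genes (496 higher, 335 lower) and 8 list genes were called, the last down from 15, and 2 members as before. The replicate numbers did not pair the libraries: same-numbered deviations correlated at 0.000565 to 0.0787 in germinal centre and −0.0471 to 0.0379 in naive B cells, and 2 of 3 and 1 of 3 KO-labelled libraries were closest to their own number. These are the numbers of the sample titles; in the column headings, numbers 2 and 3 of the WT-labelled germinal centre libraries are exchanged. By heading number the correlations were 0.00425 to 0.0787, and a block on it, added after seeing the data, gave 863 genes, 10 list genes and 3 members, with Rgs18 called at 3.27. Of 264 alternatives for group levels, 263 stayed within the replicate SD. A median, or a mean without 1 library, cannot leave that SD, so nothing is read from this count. Only CPM over the genes shared by all tables could leave it, and there Rgs14 in KO-labelled naive libraries moved to 26.4 CPM. A value of 0 leaves room for a level of up to the floor of 3 reads at this depth. Values under that floor were also listed: Rgs3 had 2 reads and 1 read in KO-labelled germinal centre replicates 1 and 3.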
